A study of Mus musculus with 32 samples.

Results

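The supporting cell pull-down 24 h after noise comprised 3 RNA sequencing libraries, which were set against 2 libraries of the same pull-down from mice without noise. These 5 of the 32 libraries of the series are all it holds of both groups: every HA immunoprecipitate (IP) of the Sox2 strain with the matching time label was taken, and all 43947 genes of the files were used. The mice were 10 weeks old and carried Sox2Cre/+ and RiboTagHA/+, written as Sox2CreERT2, a tamoxifen-inducible Cre driven by Sox2, with RiboTag and CBA in the design text. Where Cre is active, RiboTag leaves Rpl22, a protein of the ribosome, with an HA tag, and an HA antibody then pulls down the ribosomes of those cells with the RNA they carry. The 24 h group had been exposed to noise at 105 dB SPL for 2 h and was killed 24 h later, while the control group carried the same alleles and had no noise. Further groups served for comparison: 2 IPs of the same strain at 6 h after the same noise, the whole cochlea inputs taken as an aliquot of each homogenate, and the 3 IPs each at 24 h and without noise from PrestinCre/+;RiboTagHA/+ mice of the same age, in which Cre is active in outer hair cells. Libraries are labelled as biological replicates, and whether animals were pooled is not given in the sources used here.

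Supporting cells surround the sensory hair cells of the cochlea, carry Sox2 into adulthood, and keep the epithelium sealed and its potassium buffered when hair cells are stressed. Type I interferons act through receptors that activate the kinases Jak1 and Tyk2. These phosphorylate STAT factors such as Stat2, which enters the nucleus with Irf9 in a complex that binds an element found before many antiviral genes, the interferon-stimulated response element. The products of these genes block viral RNA, present antigen and attract leukocytes, and cells can run the programme with no virus present.

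Among the 7 genes past the threshold that are named here, several belong to this programme, so the stretch before their start is shown for 4 of them. The sequences are RefSeq promoter windows of GRCm38.p6, from 250 bases before to 50 bases after the gene's start, 5′ to 3′ on the gene's strand. Capitals mark matches to TTTCNNTTTC or its reverse complement GAAANNGAAA, a plain form of the response element, and overlapping matches were counted. The window of Cxcl10 lies at chr5:92348840-92349139 on the minus strand, that of Stat2 at chr10:128270248-128270547 on the plus strand, that of Ifitm3 at chr7:141010695-141010994 on the minus strand, and that of Ifi44l at chr3:151762842-151763141 on the minus strand.
Cxcl10: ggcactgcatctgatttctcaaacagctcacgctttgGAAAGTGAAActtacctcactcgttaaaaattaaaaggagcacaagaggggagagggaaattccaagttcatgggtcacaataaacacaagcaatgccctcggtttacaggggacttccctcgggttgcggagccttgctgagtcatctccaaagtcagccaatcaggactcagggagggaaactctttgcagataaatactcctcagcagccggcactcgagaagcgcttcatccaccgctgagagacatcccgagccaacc
Stat2: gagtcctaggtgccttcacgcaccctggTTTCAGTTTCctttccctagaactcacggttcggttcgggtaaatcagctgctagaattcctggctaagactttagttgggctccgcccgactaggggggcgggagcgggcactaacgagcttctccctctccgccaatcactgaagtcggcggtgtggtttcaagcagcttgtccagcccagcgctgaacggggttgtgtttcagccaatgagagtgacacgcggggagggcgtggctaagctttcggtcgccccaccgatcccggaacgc
Ifitm3: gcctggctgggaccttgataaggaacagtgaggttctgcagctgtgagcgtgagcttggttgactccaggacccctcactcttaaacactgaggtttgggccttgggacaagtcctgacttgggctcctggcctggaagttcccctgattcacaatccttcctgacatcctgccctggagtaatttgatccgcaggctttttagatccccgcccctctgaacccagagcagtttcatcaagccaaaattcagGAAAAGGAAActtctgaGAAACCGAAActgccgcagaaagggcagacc
Ifi44l: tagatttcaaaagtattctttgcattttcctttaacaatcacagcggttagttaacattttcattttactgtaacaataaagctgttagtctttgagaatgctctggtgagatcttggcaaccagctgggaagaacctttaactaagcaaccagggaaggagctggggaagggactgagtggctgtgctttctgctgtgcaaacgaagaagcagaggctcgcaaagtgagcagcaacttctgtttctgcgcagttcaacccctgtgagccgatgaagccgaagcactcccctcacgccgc
Counted from 0 at the gene's start, the match began at position -213 in Cxcl10 and at position -222 in Stat2. The pair of matches in Ifitm3 began at positions 2 and 19, after the start. The window of Ifi44l held none of these letters. Of the 7 genes, 6 had a window, and those of Lcn2 and Ncdn, not shown, held no match either. The motif stood in 3.44% of all 32851 windows and in at least 1 window of 3.51% of the 11245 tested genes that had one. Among list members that were tested and had a window, it stood in 9 of 10 interferon-inducible GTPases, 15 of 38 antiviral genes, 4 of 14 antigen presentation genes, 2 of 7 CXC chemokines, 1 of 18 spiral ganglion neuron genes and 0 of 20 respiratory chain genes. Counted the same way, it stood in 1 of 9 interferon receptors and JAK-STAT factors and 1 of 7 interferon regulatory factors. The counts were 0 of 14 for NF-kB genes and 0 of 3 for CC chemokines. A match describes the letters of a window and is not a measured binding site.

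The values are TPM, a length-scaled share of each library that has the same total in every library and keeps no read depth, so no counting interval can be given. Genes above 0 numbered 18905 to 20434 in the 24 h IPs and 17395 and 19230 in the control IPs. The share of mitochondrially encoded RNA was 3.63% to 5.80% at 24 h and 3.07% and 4.35% in controls. Some genes that every cell uses are listed at 0 in all 5 libraries (Uqcrc1 of the respiratory chain and 6 of 15 mitochondrially encoded genes), so a value of 0 is given here only as listed at 0. Fewer cells of a type and less RNA per cell cannot be told apart in such samples.

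The label was checked against markers over the 24 h and control libraries. In the fit of IP against input, limma called 9537 of 18560 genes higher in the IP (51.4%) and 436 lower (2.35%), and with median-of-ratios scaling 2756 and 2723. Of 46 supporting cell genes tested, 41 were higher in the IP and none lower, with a median difference of 1.34 (log2) beside 0.67 over all genes. Sox2 itself stood at 280, 434 and 385 TPM in the 24 h IPs, against 34.8, 36.4 and 33.0 TPM in their inputs. In controls it stood at 654 and 320.3 TPM in the IPs, against 63.7 and 32.5 TPM in the inputs. Of 26 Schwann and satellite glia genes, 24 were higher in the IP and 1 lower, with a median of 1.99. These glia also carry Sox2, so the pull-down held glial RNA beside that of supporting cells, and the values below belong to both. Of 16 macrophage genes, none was higher and 4 were lower in the IP, with a median of -0.50. Lists that mark no cell type were also higher in the IP. These were 7 of 7 nuclear retained RNAs (median 2.03), 22 of 26 immediate early genes and 12 of 13 glucocorticoid-responsive genes (median 1.32). Of 28 spiral ganglion neuron genes, 16 were higher and 1 lower, and of 27 respiratory chain genes 3 and 9. A high share or median in the IP is thus not specific to supporting cell genes.

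The control IPs stood apart by genes of the brain. These and pituitary genes are a set chosen after its values were seen and given with no test. Sst, the hormone somatostatin, stood at 103, 25.7 and 5.34 TPM in the 24 h IPs, against 684 and 383 TPM in the control IPs. Six3, a forebrain transcription factor, stood at 0.98, 0.02 and 0.11 TPM at 24 h, against 26.2 and 9.32 TPM in controls. Nkx2-1 was listed at 0 in the 24 h IPs, against 3.10 and 17.7 TPM in controls, and Magel2 stood at 0, 1.58 and 0 TPM at 24 h, against 11.5 and 51.6 TPM in controls. Gad1 and Gad2, which make the transmitter GABA, and Olig2, of oligodendrocytes, were also higher in both control IPs than in every 24 h IP. In the inputs of the same homogenates Sst stood at 46.6, 31.6 and 4.60 TPM in the 24 h inputs, against 76.6 and 111 TPM in the control inputs, so the input of 24 h replicate 2 held more Sst than its IP. Pituitary hormones followed no group. Gh stood at 67.5, 549 and 395 TPM in the 24 h IPs, against 82.4 and 208 TPM in the control IPs, and Pomc at 511, 29.4 and 239 TPM, against 4.65 and 127 TPM. Xist and the Y-linked Ddx3y were both above 0 in each of the 5 IPs, Xist at 155, 39.7 and 56.9 TPM at 24 h, against 94.1 and 191 TPM in controls, and Ddx3y at 57.1, 67.6 and 63.0 TPM, against 37.7 and 28.6 TPM. The part of this brain-type RNA in the falls described below was not tested.

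**Figure D1:**
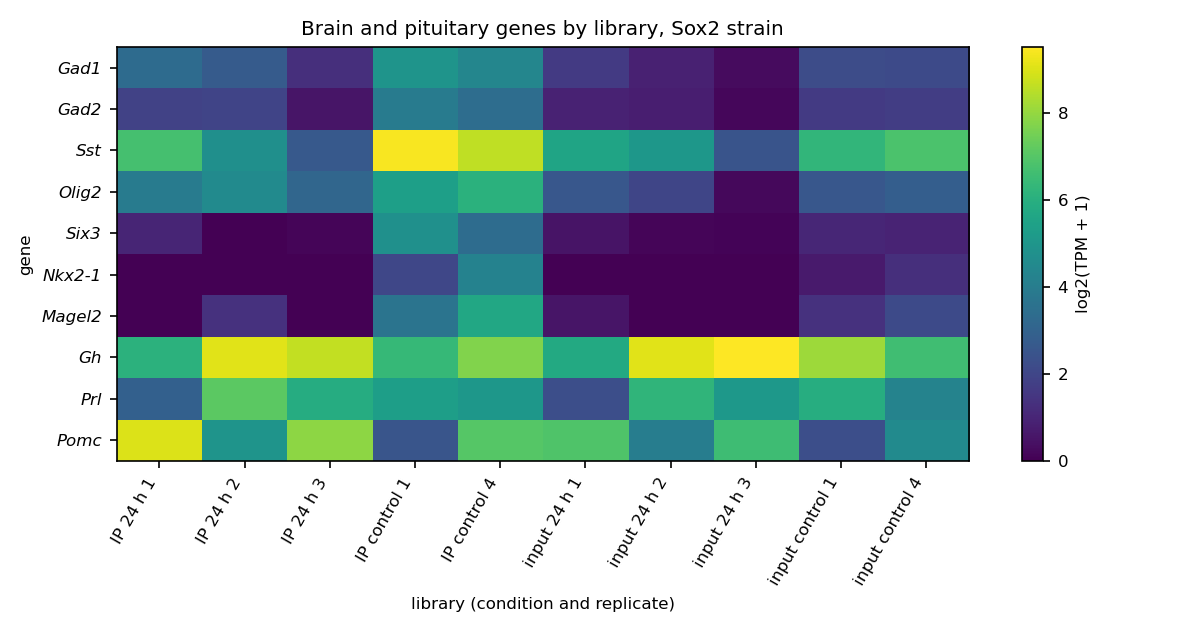
Brain and pituitary genes (rows) in each library of the Sox2 strain at 24 h and without noise (columns, IP then input), coloured by log2(TPM + 1). The control IPs hold the highest Sst, at 684 and 383 TPM, while Gh and Pomc vary among libraries of one group.

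The comparison of 24 h with control asks which transcripts of the pull-down change a day after the noise. The IPs are not read as ribosome-bound RNA alone, since they also held the nuclear RNA Malat1. It stood at 15851, 8533 and 10267 TPM in the 24 h IPs, against 3692, 3065 and 2648 TPM in their inputs. In controls it stood at 9205 and 18789 TPM in the IPs, against 3150 and 2577 TPM in the inputs. Among protein-coding genes, Cxcl10, Ccl2, Lcn2, Ifi44l, Ifitm3, Stat2 and 9330161L09Rik rose and Ncdn fell. Of 17577 genes tested with limma, 19 were higher (0.108%) and 14 lower (0.0796%) at an adjusted p under 0.05, and 2028 had an unadjusted p under 0.05. Of these 33 calls, 8 were of protein-coding genes, and the others were mostly pseudogenes and genes of small RNAs. Of the 33, 20 were listed at 0 in every library of the lower group. In a wider reading without a p-value, all 3 libraries at 24 h lay above both controls for 3919 genes (22.3%) and below both for 1904 (10.8%).

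Cxcl10, a chemokine that draws T cells and is induced by interferons (ENSMUSG00000034855, GRCm38 chromosome 5, 92346638 to 92348889), stood at 409, 383 and 219.5 TPM in the 24 h IPs, against 10.1 and 14.5 TPM in the control IPs. The lowest 24 h library lay far above the highest control. The log2 fold change was 4.64 ± 0.31 (SE, limma adjusted p = 0.0138), on the log2(TPM + 1) scale that holds for every fold change here and understates the change of low genes. Ccl2, which draws monocytes (chromosome 11, 82035571 to 82037453), stood at 75.7, 59.9 and 49.5 TPM at 24 h, against 2.22 and 0.87 TPM in controls, a log2 fold change of 4.65 ± 0.30 (limma adjusted p = 0.0130). Lcn2, lipocalin 2, which binds bacterial siderophores and is made by neutrophils and by stressed epithelium and glia (chromosome 2, 32384633 to 32388252), stood at 10.99, 18.2 and 28.5 TPM at 24 h and was listed at 0 in both controls (limma adjusted p = 0.0467), so no fold is given. It was above 0 in every 24 h library.

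Ifitm3, a membrane protein that stops viruses from fusing with endosomes (chromosome 7, 141009586 to 141010770), stood at 1918, 2095 and 1854 TPM in the 24 h IPs, against 478 and 425 TPM in the control IPs. Its log2 fold change was 2.11 ± 0.15 (limma adjusted p = 0.0169). It was the most abundant of the called genes, and near-identical Ifitm family members may share its reads. Ifi44l, an interferon-induced gene of low level here (chromosome 3, 151758737 to 151762892), stood at 7.72, 7.56 and 5.91 TPM at 24 h, against 0.17 and 0 TPM in controls (limma adjusted p = 0.0445). Stat2, the partner of Irf9 in the interferon signal (chromosome 10, 128270559 to 128292849), stood at 45.2, 51.1 and 44.9 TPM at 24 h, against 17.0 and 14.6 TPM in controls. The libraries within each group lay close together, and the log2 fold change was 1.52 ± 0.16 (limma adjusted p = 0.0467).

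Ncdn, neurochondrin, a protein of neurite outgrowth (chromosome 4, 126743750 to 126753438), fell to 213, 242 and 198 TPM in the 24 h IPs, against 608 and 674 TPM in the control IPs, a log2 fold change of -1.56 ± 0.17 (limma adjusted p = 0.0478). Its 6 h IPs stood at 162 and 204 TPM, also below both control IPs. These are the control IPs rich in brain-type RNA, while Sst stood at 1.12 and 0.90 TPM in the 6 h IPs. In the inputs Ncdn stood at 155, 147 and 135 TPM at 24 h, against 167 and 193 TPM without noise. The tagged Rpl22 stood at 87.1, 93.5 and 90.2 TPM at 24 h, against 87.8 and 84.5 TPM in controls (log2 fold change 0.07 ± 0.13, limma adjusted p = 0.864). That of Sox2 was -0.34 ± 0.35 (limma adjusted p = 0.721).

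**Figure D2:**
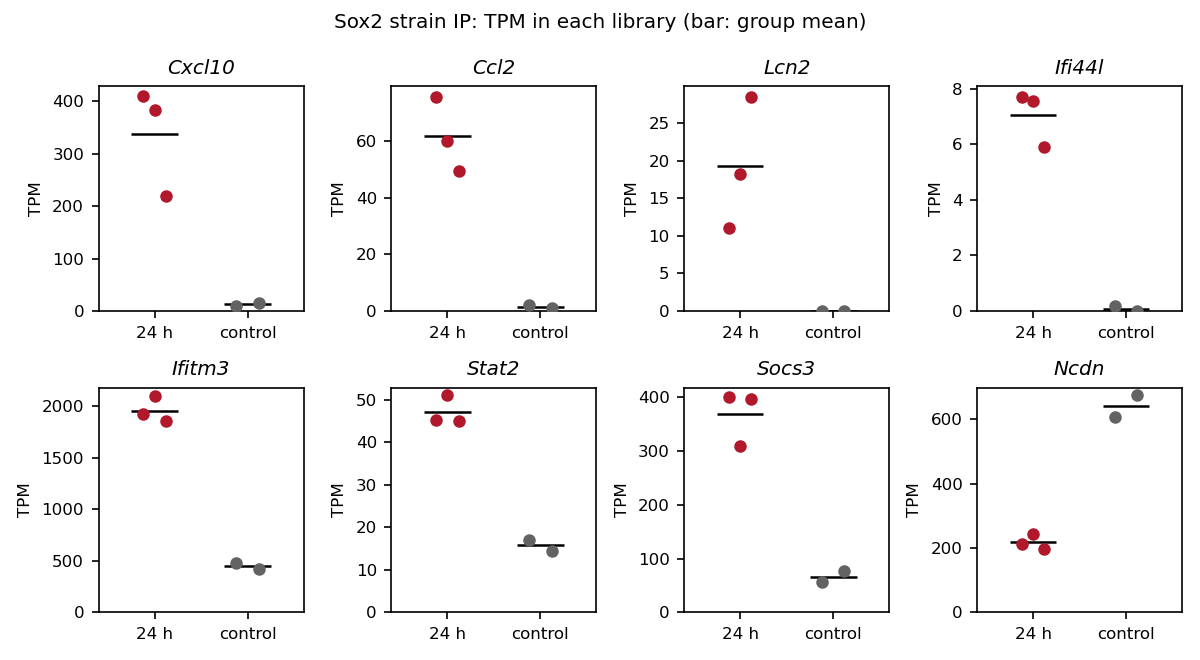
TPM (y axis) of 8 genes in each IP library of the Sox2 strain, 24 h at left and control at right, with a bar at the group mean. Groups do not overlap in any panel, Ncdn alone is lower at 24 h, and Socs3 did not pass the threshold (adjusted p = 0.0597).

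These calls depended on single libraries and on the settings. Stat2, Ncdn, Lcn2 and Ifi44l also missed the threshold with a 5 TPM filter, with median-of-ratios scaling and with the 24 h and control IPs only, and Stat2 and Ncdn without the mean-variance trend and over protein-coding genes only. Without control replicate 4 limma called 0 genes (1430 at an unadjusted p under 0.05), and without 24 h replicate 1 it called 3. Stat2, Ncdn, Lcn2, Ifi44l and Ifitm3 missed the threshold without any single one of the 5 libraries, Cxcl10 without 24 h replicate 1 or either control, and Ccl2 without 24 h replicate 1 or control replicate 4. Over 17 other settings the log2 fold change ran from 4.39 to 5.04 for Cxcl10, 4.26 to 5.34 for Ccl2, 1.98 to 2.20 for Ifitm3, 1.39 to 1.62 for Stat2 and -1.68 to -1.39 for Ncdn. It was widest for the genes at or near 0 in controls, at 2.78 to 5.44 for Ifi44l and 3.55 to 7.49 for Lcn2, whose values depend on the pseudocount. A fit over all 14 libraries of the strain, IP and input together, shared 1 estimate of the spread and called 375 of 18560 genes higher (2.02%) and 191 lower (1.03%), including 32 of the 33. The inputs vary less (median residual SD 0.245 on the log2 scale) than the IPs (0.381), so this shared spread is narrower than that of the IPs. Its calls are given below as the joint fit, beside the calls of the 7 IPs.

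The gene lists below were read by their counts and medians beside those of all genes tested, whose median log2 fold change was 0.14 (0.03 with median-of-ratios scaling). Of all genes tested, 22.3% had all 24 h libraries above both controls and 10.8% below both, and each list's counts stand beside these shares. Interferon ligands were not measurable: none of 8 reached 1 TPM in 2 of the 7 IPs. Of 10 receptors and JAK-STAT factors, 1 was called (Stat2), 3 in the joint fit, and 7 had all 24 h libraries above both controls, with a median of 0.57. Irf9, which binds DNA in a complex with Stat2, stood at 98.9, 107 and 105 TPM at 24 h, against 34.8 and 54.5 TPM in controls (adjusted p = 0.161, and 0.0175 in the joint fit with limma). Ifnar1, a chain of the type I interferon receptor, stood at 46.9, 37.3 and 54.6 TPM, against 24.3 and 21.04 TPM (adjusted p = 0.232, joint fit 0.0297 with limma). Jak1 had a log2 fold change of 0.46 ± 0.24.

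Of 13 nucleic acid sensors and adaptors, none was called, 4 were called in the joint fit and 9 had all 24 h libraries above both controls (median 1.03). Tlr3, the endosomal sensor of double-stranded RNA, stood at 52.8, 62.4 and 58.2 TPM at 24 h, against 26.7 and 24.7 TPM in controls (joint fit adjusted p = 0.0071, limma). Ifih1, which senses long viral RNA as MDA5, stood at 7.40, 7.29 and 5.94 TPM, against 1.49 and 2.02 TPM, and Zbp1, a sensor of Z-form nucleic acid, at 14.5, 16.5 and 9.09 TPM, against 1.22 and 4.32 TPM. Ddx58, the RIG-I sensor, had a log2 fold change of 0.89 ± 0.21 and Myd88, the adaptor of Toll-like receptors, one of 1.34 ± 0.32. The list's median was 0.58 without control replicate 1. Of 8 interferon regulatory factors, none was called, 2 in the joint fit, and 4 were above both controls in every 24 h library (median 0.39). The inducible Irf7 stood at 190.3, 265 and 169 TPM at 24 h, against 32.0 and 34.8 TPM in controls (log2 fold change 2.58 ± 0.53, limma adjusted p = 0.186, joint fit 0.0213). Irf1 stood at 62.5, 61.9 and 64.3 TPM, against 34.4 and 31.6 TPM (joint fit adjusted p = 0.0251, limma), while Irf2, Irf4 and Irf5 had log2 fold changes of 0.30 to 0.51.

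Antiviral effectors formed the longest list. Of 48 interferon-stimulated antiviral genes tested of 50, 2 were called (Ifitm3 and Ifi44l), 23 in the joint fit, none was lower in either, and 43 had all 24 h libraries above both controls. Their median was 1.34, and 1.22 to 1.52 over the other settings. Rsad2, viperin, which blocks viral RNA synthesis, stood at 137, 226 and 113 TPM at 24 h, against 10.95 and 23.8 TPM in controls (log2 fold change 3.15 ± 0.41, limma adjusted p = 0.0722). Oasl2 stood at 85.0, 113 and 74.0 TPM, against 25.9 and 20.6 TPM, Parp14 at 22.1, 18.8 and 21.9 TPM, against 7.20 and 6.80 TPM, and the secreted lectin-binding protein Lgals3bp at 379, 414 and 321 TPM, against 149.7 and 144 TPM. These 3 genes missed the threshold narrowly, with limma adjusted p of 0.0640, 0.0713 and 0.0640.

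Of 16 interferon-inducible GTPases tested, which attack the membranes around intracellular pathogens, none was called, 8 in the joint fit, and 14 were above both controls in every 24 h library, with a median of 1.61. Gbp2 stood at 19.9, 23.2 and 17.0 TPM at 24 h, against 1.08 and 1.82 TPM in controls (log2 fold change 3.11 ± 0.45). Irgm2 stood at 21.7, 24.3 and 17.6 TPM, against 4.23 and 2.38 TPM, Irgm1 at 104, 155 and 99.1 TPM, against 29.4 and 41.3 TPM, and Gbp3 at 49.4, 68.0 and 44.3 TPM, against 15.5 and 19.0 TPM. The Gbp and Irgm families hold similar copies, and the counting of reads they share is not given. Of 16 genes of ubiquitin-like conjugation, none was called, 8 in the joint fit, and 14 were above both controls (median 0.97). Isg15, the ubiquitin-like modifier, stood at 212, 481 and 247 TPM at 24 h, against 57.1 and 76.9 TPM in controls, and Usp18, which removes it, at 11.7, 15.7 and 9.11 TPM, against 2.10 and 1.94 TPM. Trim56 stood at 130.1, 152 and 140.3 TPM, against 77.9 and 67.8 TPM.

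Of 19 antigen presentation genes, none was called, 11 in the joint fit, and 16 were above both controls, with a median of 0.93. The peptide transporter subunits Tap1 and Tap2 stood at 43.4, 49.2 and 35.0 TPM and at 71.0, 98.1 and 87.2 TPM at 24 h, against 10.7 and 16.5 TPM and 47.5 and 40.9 TPM in controls. The class I heavy chains H2-K1 and H2-D1 had log2 fold changes of 1.02 ± 0.18 and 0.80 ± 0.14 (joint fit adjusted p = 0.0112 for both, limma). H2-Q7 stood at 3.14, 5.57 and 2.62 TPM at 24 h and was listed at 0 in both controls. Class I genes are near-identical in places, so reads may be split among them. Of 6 immunoproteasome genes, none was called, and 1 in the joint fit, Psmb8, at 41.4, 58.2 and 61.3 TPM, against 8.96 and 13.6 TPM (median of the list 0.62, 0.36 without control replicate 1 and 1.06 without control replicate 4). Psmb9 overlapped, at 15.3, 13.8 and 10.1 TPM, against 3.56 and 17.1 TPM.

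**Figure D3:**
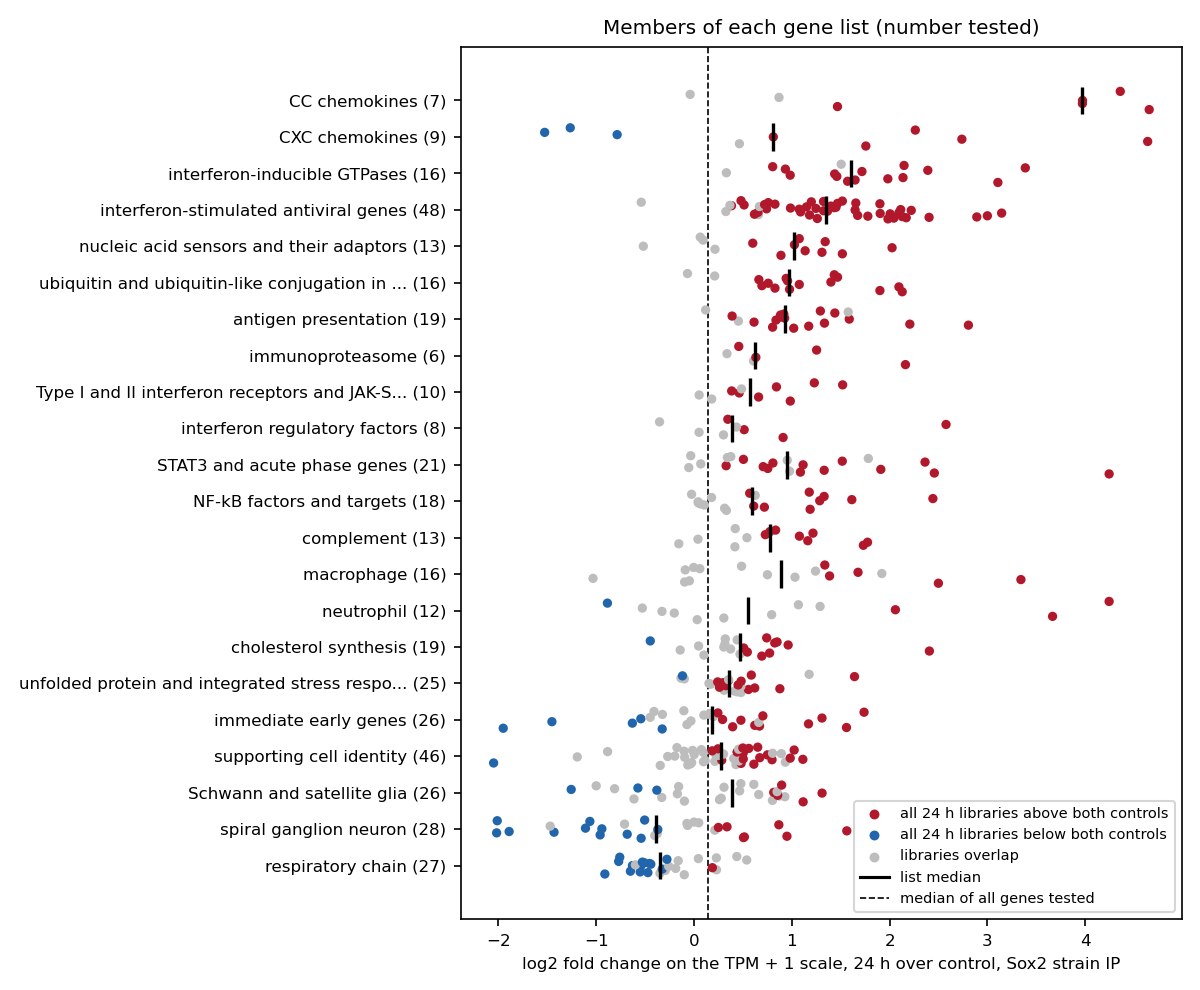
Log2 fold change of 24 h over control in the Sox2 strain IP (x axis) for each tested member of 22 gene lists (rows, number tested in parentheses), with the list median as a bar and the median of all genes (0.14) as a dashed line. Red points, whose 24 h libraries all lie above both controls, make up 43 of 48 antiviral genes and 14 of 16 GTPases. Blue points, whose 24 h libraries all lie below both, make up 14 of 27 respiratory chain genes. Over all genes tested, 22.3% lie above both controls and 10.8% below.

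Of 7 CC chemokines tested of 13, 1 was called (Ccl2), 4 in the joint fit, and 5 were above both controls in every 24 h library. Ccl7 stood at 46.6, 7 and 15.9 TPM at 24 h, against 0.19 and 0.18 TPM in controls. Ccl12 stood at 32.9, 22.2 and 9.94 TPM and Ccl5 at 11.3, 14.99 and 18.6 TPM, and both were listed at 0 in the 2 controls. The list's median of 3.97 rests on such genes. Of 9 CXC chemokines tested, 1 was called (Cxcl10), 2 were higher and 1 lower in the joint fit, 5 lay above both controls and 3 below (median 0.81). Cxcl16 stood at 17.9, 24.4 and 15.9 TPM at 24 h, against 2.21 and 4.46 TPM in controls, and Cxcl11 at 9.34, 2.83 and 6.51 TPM and listed at 0 in both controls. Cx3cl1, a membrane chemokine of neurons, stood at 94.0, 63.1 and 70.8 TPM, against 260.3 and 126 TPM. Of 8 inflammatory cytokines tested, none was called and 1 in the joint fit, the gp130 ligand Lif, at 3.28, 4.07 and 2.88 TPM, against 0.02 and 0.04 TPM.

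STAT3 carries the signal of such ligands to acute phase genes. Of 21 STAT3 and acute phase genes, 1 was called (Lcn2), 7 in the joint fit, and 13 were above both controls (median 0.95, and 0.70 without control replicate 1). Socs3, the feedback inhibitor of the pathway, stood at 401, 308 and 396 TPM at 24 h, against 56.5 and 76.5 TPM in controls (log2 fold change 2.46 ± 0.28, limma adjusted p = 0.0597, joint fit 0.00197). Osmr, a receptor chain for oncostatin M, stood at 11.7, 10.4 and 9.34 TPM, against 1.74 and 2.38 TPM, and Cebpd at 61.9, 68.7 and 78.6 TPM, against 18.1 and 8.80 TPM. Stat3 itself had a log2 fold change of 1.09 ± 0.26. Of 18 NF-kB factors and targets, none was called, 3 in the joint fit, and 9 were above both controls (median 0.59). Icam1, an adhesion molecule for leukocytes, stood at 21.6, 17.1 and 19.99 TPM, against 3.12 and 2.44 TPM, and Nfkb2, an NF-kB subunit, and Birc3, an inhibitor of cell death, had log2 fold changes of 1.19 ± 0.22 and 1.33 ± 0.27. Of 13 complement genes, none was called in either fit and 8 were above both controls (median 0.78).

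Of 26 immediate early genes, none was called, and 1 was higher and 1 lower in the joint fit, with a median of 0.18. Of 25 genes of the unfolded protein and integrated stress response, none was called and 1 in the joint fit, Chac1, at 20.7, 20.1 and 21.8 TPM at 24 h, against 9.39 and 3.73 TPM (median 0.35). Of 17 heat shock genes, none was called and 1 in the joint fit, the small chaperone Hspb1, at 134, 112 and 143 TPM, against 37.7 and 62.6 TPM (median 0.04). Of 20 cell death genes, none was called and 2 in the joint fit: Tnfrsf1a, the TNF receptor, at 82.0, 83.4 and 92.5 TPM, against 39.8 and 41.7 TPM, and Tnfsf10, the death ligand TRAIL, at 14.1, 19.5 and 14.7 TPM, against 3.15 and 3.42 TPM (median of the list 0.44, with 12 above both controls). Of 22 NRF2 and antioxidant genes, none was called and 2 in the joint fit, Srxn1 (log2 fold change 1.21 ± 0.21) and Nfe2l2 (0.71 ± 0.20), with a median of 0.14. Of 15 p53 targets and 13 glucocorticoid-responsive genes, none was called, with medians of 0.30 and -0.06, and 1 glucocorticoid-responsive gene, Pdk4, was higher in the joint fit (limma adjusted p = 0.0365). Over the 17 other settings the medians ran from 0.03 to 0.37 for immediate early genes, -0.09 to 0.14 for heat shock genes, 0.17 to 0.32 for p53 targets, -0.12 to 0.92 for inflammatory cytokines and 0.64 to 1.76 for CXC chemokines.

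Genes of the cell types in and around the pull-down were read as levels of the IP. Of 46 supporting cell genes, none was called, 2 in the joint fit, 17 lay above both controls and 1 below, with a median of 0.27 (0.48 without control replicate 1 and 0.13 without control replicate 4). The libraries of 28 overlapped, and 13 of the 46 had a negative log2 fold change, down to -2.05 for Hes5. Over all genes tested, 22.3% lay above both controls and 10.8% below. The gap junction gene Gjb2 stood at 1997, 2108 and 2460 TPM at 24 h, against 1265 and 1477 TPM in controls (joint fit adjusted p = 0.0418, limma). Otog, otogelin of the tectorial membrane, stood at 44.04, 61.6 and 77.3 TPM, against 31.8 and 22.8 TPM (joint fit 0.0342), and the potassium channel Kcnj10 at 238, 312 and 305 TPM, against 189 and 148 TPM. The summed level of the 47 listed supporting cell genes was 13581 to 17535 TPM at 24 h, against 10591 and 15704 TPM in controls. Of 26 Schwann and satellite glia genes, none was called in either fit (median 0.39, but 0.79 without control replicate 1 and 0.03 without control replicate 4). S100b, shared by glia and supporting cells, stood at 1712, 958 and 1003 TPM, against 1714 and 4641 TPM, and the controls lay far apart.

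Leukocyte markers are given beside these values. Of 16 macrophage genes tested, none was called, 2 in the joint fit, and 5 were above both controls, with a median of 0.89. The other 11 overlapped, and 5 of the 16 had a negative log2 fold change. Over all genes tested, 22.3% lay above both controls and 10.8% below. Mpeg1, a pore-forming protein of macrophages, stood at 30.6, 17.5 and 27.7 TPM at 24 h, against 3.94 and 0.29 TPM in controls, and the lysosomal Cd68 at 48.5, 94.0 and 71.4 TPM, against 18.3 and 6.90 TPM. The summed level of the 20 listed macrophage genes was 248 to 256 TPM at 24 h, against 76.9 and 120.2 TPM in controls, and none of them was listed at 0 throughout. Of 12 neutrophil genes, 1 was called, Lcn2, 2 in the joint fit, 3 lay above both controls, 1 below and 8 overlapped, with a median of 0.55 (0.16 without control replicate 1 and 1.07 without control replicate 4). The granule protein Ngp stood at 19.6, 6.80 and 21.3 TPM at 24 h, against 0.21 and 0.20 TPM. Their sum was 114 to 180 TPM at 24 h, against 48.1 and 180 TPM. Of 16 lymphocyte genes, 7 were listed at 0 in all 5 libraries (Cd3d, Cd3g, Cd8b1, Nkg7, Gzmb, Prf1 and Ncr1), and none of the 5 tested was called. In the joint fit 1 was lower, the T cell receptor gene Trac, at 0.0837, 2.5 and 0.0912 TPM at 24 h, against 5.58 and 7.09 TPM in controls (limma adjusted p = 0.0407). The part of leukocyte RNA in the interferon and chemokine values was not tested.

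Neuronal and respiratory chain genes had medians below 0. Of 28 spiral ganglion neuron genes, none was called, 2 were lower in the joint fit, and 12 had all 24 h libraries below both controls and 7 above, with a median of -0.39 (-0.24 without control replicate 1). Over all genes tested, 10.8% lay below both controls and 22.3% above. Uchl1, a neuronal ubiquitin hydrolase, stood at 55.2, 61.7 and 32.2 TPM at 24 h, against 177 and 184 TPM in controls (joint fit adjusted p = 0.0287, limma), and Thy1, a surface protein of neurons, at 131, 125 and 78.0 TPM, against 361 and 240.2 TPM (joint fit 0.0392). In the 6 h IPs Uchl1 stood at 26.6 and 45.8 TPM and Thy1 at 90.3 and 130 TPM, also below both control IPs. The control IPs were also those with the most Sst and Six3. The part of noise or of brain-type RNA in these falls was not tested. Of 27 respiratory chain genes, none was called, 2 were lower in the joint fit (Sdhb and Atp5e), and 14 lay below both controls and 1 above, with a median of -0.35 (-0.23 without control replicate 1). Sdhb stood at 44.9, 48.8 and 42.0 TPM at 24 h, against 62.4 and 70.6 TPM.

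Between 24 h and 6 h, 4 of 48 antiviral genes were called higher at 24 h, and none of 16 GTPases, 19 antigen presentation genes, 10 JAK-STAT factors or 13 sensors, while 4 of 26 immediate early genes were called lower. The median log2 difference was 1.17 for antiviral genes, 1.10 for GTPases, 0.66 for antigen presentation, 0.29 for JAK-STAT factors and 0.76 for sensors. It was -1.18 for immediate early genes, beside 0.22 over all genes tested. In the IPs alone, with no control in the contrast, limma called 77 of 17577 genes higher at 24 h (0.438%) and 12 lower (0.0683%), and 0 without 24 h replicate 1 (1510 at an unadjusted p under 0.05), 29 and 21 without 24 h replicates 2 and 3, and 46 and 12 without 6 h replicates 2 and 4. Cxcl10 stood at 10.1 and 14.5 TPM in controls, 36.7 and 38.3 TPM at 6 h, and 409, 383 and 219.5 TPM at 24 h, a log2 difference between 24 h and 6 h of 3.08 ± 0.31 (limma adjusted p = 0.0362). Ifitm3 followed the same order, with 826 and 695 TPM at 6 h (difference from 24 h 1.36 ± 0.15, limma adjusted p = 0.0471). Ccl12 was listed at 0 in controls and at 6 h and called at 24 h against 6 h (limma adjusted p = 0.0484), and Ifi44l was listed at 0 at 6 h. Psmb8 stood at 8.83 and 5.43 TPM at 6 h, against the 41.4 to 61.3 TPM at 24 h (limma adjusted p = 0.0471).

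Another set had its highest values at 6 h. Gdf15, a stress-induced cytokine, stood at 6.71 and 12.04 TPM in controls, 326 and 569.5 TPM at 6 h, and 11.4, 28.5 and 30.9 TPM at 24 h (24 h minus 6 h -4.25 ± 0.51, limma adjusted p = 0.0484). Fos stood at 88.0 and 109 TPM, 327 and 671 TPM, and 76.5, 74.0 and 83.7 TPM at these times, and Egr1 at 106 and 119 TPM, 238 and 376 TPM, and 70.3, 74.5 and 72.1 TPM. Zfp36, which destabilizes cytokine mRNA, stood at 544 and 552 TPM, 1341 and 1407 TPM, and 629, 531 and 608 TPM. Fos, Egr1, Zfp36, Atf3 and Epha2 were all called lower at 24 h than at 6 h. By contrast, Ccl2 stood at 79.9 and 76.3 TPM at 6 h, and Socs3 at 448 and 754 TPM, near or above their 24 h levels (24 h minus 6 h -0.36, adjusted p = 0.654, and -0.67, adjusted p = 0.414, limma). Lypd2, Higd1b and Bhlhe23 were above 8 TPM in every 24 h IP and listed at 0 in both 6 h IPs, while Higd1b and Bhlhe23 stood at 6.84 and 9.83 TPM and at 6.91 and 16.1 TPM in controls. The 6 h IPs held fewer genes above 0 (16537 and 16813) than the 24 h or control IPs.

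**Figure D4:**
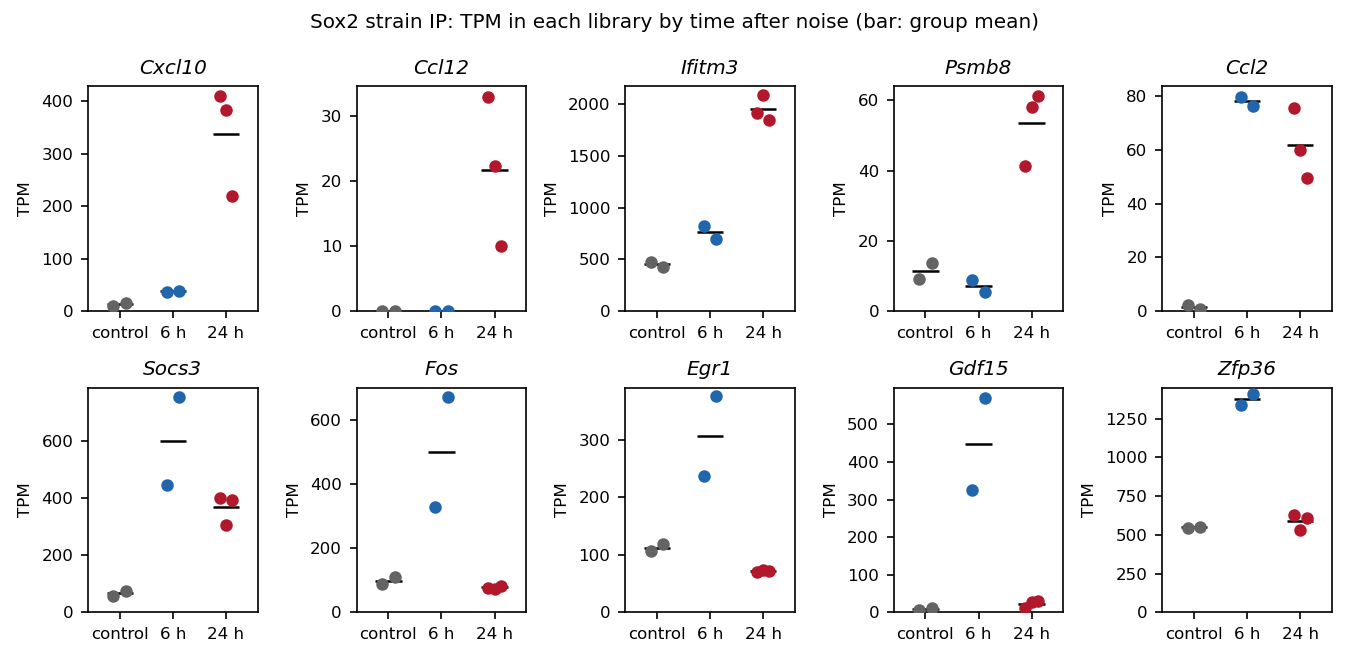
TPM (y axis) of 10 genes in each IP library of the Sox2 strain without noise, at 6 h and at 24 h (x axis), with a bar at the group mean. Cxcl10, Ccl12, Ifitm3 and Psmb8 are highest at 24 h, while Fos, Egr1, Gdf15 and Zfp36 are highest at 6 h. At 24 h Egr1 lies below both controls, and 2 of 3 libraries of Gdf15 lie above them.

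Whether the pull-down responded otherwise than the whole cochlea was tested as an interaction over the 14 libraries of the strain. The interferon lists had positive medians in both: the 48 antiviral genes had a median of 1.34 in the IP and 1.14 in the input, the 16 GTPases 1.61 and 1.17, and the 19 antigen presentation genes 0.93 and 0.77. No member of these lists was called in the interaction. Cxcl10 stood at 232, 221 and 144 TPM in the 24 h inputs, against 5.53 and 20.2 TPM in the control inputs, and its response differed between IP and input by 0.58 ± 0.66 (limma adjusted p = 0.969). Stat2 stood at 16.3, 23.3 and 16.7 TPM in the 24 h inputs, against 9.90 and 7.76 TPM (difference 0.52 ± 0.25, limma adjusted p = 0.920). The level of Socs3 was higher in the IP than in the input by 2.73 ± 0.17 in log2, and its response differed by 0.26 ± 0.34.

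Of 18560 genes, 3 responded more in the IP (0.0162%) and 6 less (0.0323%), and with the homogenate as a block 0 and 2. None was protein-coding. H2-Ea, a class II gene annotated as a polymorphic pseudogene and singled out after its values were seen, stood at 2.41, 1.77 and 3.38 TPM in the 24 h IPs and was listed at 0 in the control IPs, and its inputs stood at 1.602, 0.60 and 0.81 TPM at 24 h, against 3.49 and 3.17 TPM. Several genes differed by wide but uncalled margins. Ncdn had an interaction of -1.26 ± 0.19 (limma adjusted p = 0.0864). Cyb5d1, also singled out after its values were seen, stood at 49.3, 46.7 and 45.1 TPM in the 24 h IPs, against 14.3 and 8.10 TPM in the control IPs, with 27.9, 25.6 and 33.7 TPM in the 24 h inputs, against 33.1 and 29.1 TPM (interaction 2.12 ± 0.33, limma adjusted p = 0.0864). Cxcl16 differed by 1.504 ± 0.41, Mpeg1 by 2.95 ± 0.73 and Ngp by 3.72 ± 0.87 (limma adjusted p = 0.583, 0.479 and 0.442). In the inputs Mpeg1 stood at 40.4, 35.0 and 38.7 TPM at 24 h, against 29.8 and 27.8 TPM, and Ngp at 8.001, 27.0 and 19.7 TPM, against 22.5 and 12.7 TPM, so the low values were those of the control IPs.

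**Figure D5:**
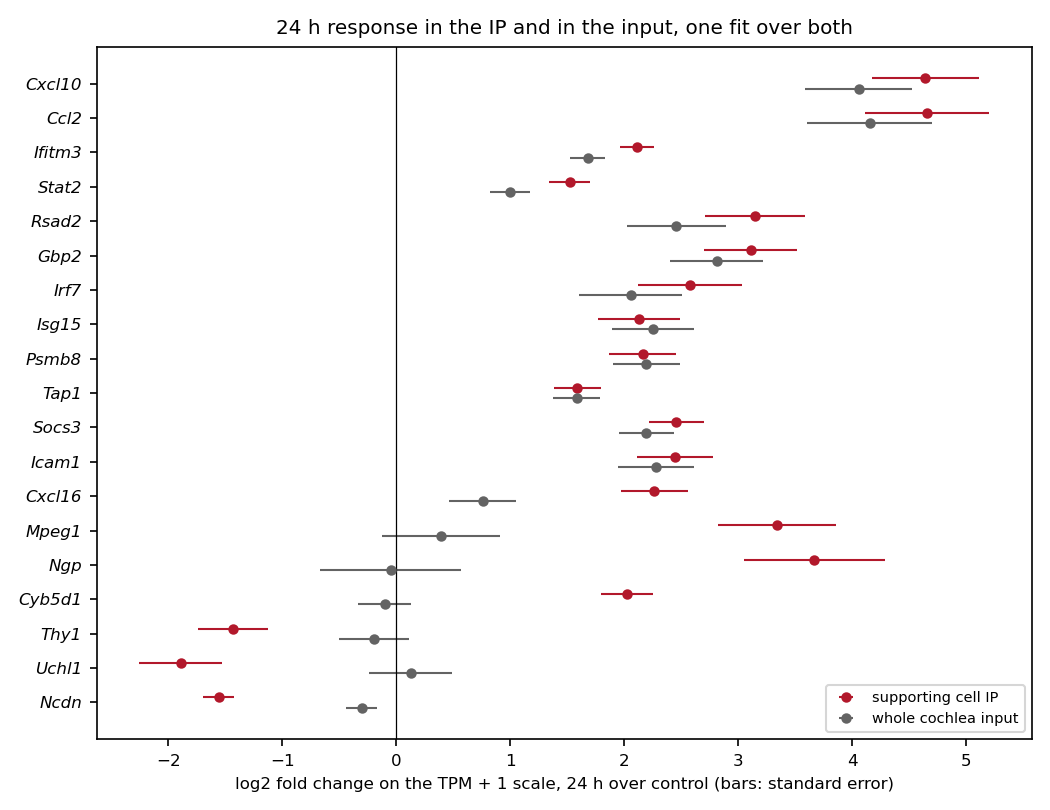
Log2 fold change of 24 h over control (x axis, bars are standard errors) for 19 genes (rows) in the supporting cell IP (red) and the whole cochlea input (grey), from the fit over 14 libraries. Interferon genes such as Ifitm3 and Stat2 lie above 0 in both, while Thy1, Uchl1 and Ncdn are low in the IP and near 0 in the input.

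Set against the outer hair cell IP at the same time, the supporting cell IP had no difference past the threshold in the genes named above. Over 15733 genes, limma called 5 as responding more in the supporting cell IP (0.0318%) and 1 less (0.00636%). Without Sox2 control replicate 1 the counts were 169 and 12, and the other libraries left out gave 3 to 24 in all. Both strains differ in their genetics and in the cells they mark, and each response was taken against the controls of its own strain. Cxcl10 averaged 577 ± 252 TPM in the outer hair cell IPs at 24 h and 8.88 ± 1.77 TPM in their controls (SD, n = 3 each), and its response in the supporting cell IP differed by -1.16 ± 0.46 (limma adjusted p = 0.225). Stat2 averaged 53.1 ± 14.2 TPM at 24 h and 34.3 ± 5.09 TPM in controls there, and Lcn2 19.2 ± 9.62 TPM and 11.2 ± 7.13 TPM. The Stat2 response differed by 0.93 ± 0.26, which did not pass the threshold (limma adjusted p = 0.132), nor did that of Lcn2 (limma adjusted p = 0.126). Of the 6 genes called, 2 are named by the rule used here. Dio3, a thyroid hormone deiodinase, stood at 0.76, 0 and 0 TPM in the supporting cell IPs at 24 h, against 80.0 and 18.0 TPM in their controls, and at 1.02 ± 0.97 TPM in the outer hair cell IPs at 24 h and listed at 0 in their controls (difference -5.90 ± 0.79, limma adjusted p = 0.021). It was high in the 2 libraries with the most Sst, and the part of brain-type RNA in this difference was not tested. The Y-linked Eif2s3y stood at 11.7, 16.6 and 12.9 TPM in the supporting cell IPs at 24 h, against 7.90 and 6.26 TPM, and averaged 8.97 ± 1.66 TPM at 24 h and 35.1 ± 7.26 TPM in controls in the outer hair cell IPs (difference 2.71 ± 0.35, limma adjusted p = 0.0159), with the sex of the animals not given in the labels.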

How the data were processed

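Gene-level TPM were deposited by the authors for IP and input libraries of the Sox2 and Prestin strains; their total is the same in every library, so read depth is unknown. Per the submitters' processing notes, TopHat and GRCm38 were used; which tool made the TPM, with which annotation and strand setting, is not given in the sources used here. Members and gene lists were chosen with earlier results of these data known. Here log2(TPM + 1) was fitted with limma 3.58.1 in R 4.3.3 (trended empirical Bayes, Benjamini-Hochberg adjustment over all genes tested, threshold 0.05) after keeping genes with at least 1 TPM in 2 or more libraries. The IP fit held the 24 h, 6 h and control IPs (7 libraries), the joint fit added the inputs (14), and the strain comparison held 16 IPs. Named genes were called genes without overlap whose higher group averaged 5 TPM or more (up to 12 each way, without predicted genes, pseudogenes and small RNAs), up to 6 members per list with the smallest p, and Cxcl10, Stat2, Lcn2, Sox2 and Rpl22. IP and input share a homogenate, per the labels; correlations of their deviations were 0.136 to 0.203 at 24 h and 0.058 in controls. Where nothing names separate animals, p-values measure the spread between these samples. Scripts were tested on simulated data. There limma called 48, 40, 43 and 45 of 50 genes given log2 changes of -4, -2, 2 and 4. It also called 17 genes that had been given no change. Alternatives were another pseudocount, filters, scaling, blocks and leaving out each library or, for IP against input, each homogenate. Some items are not reported here.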

Additional observations from a re-analysis of the deposited data

Results flagged for a closer look

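In the supporting cell IP, levels at 24 h and 6 h differed past the limma threshold for the 16 genes given here, the 8 with the largest difference on each side among those the naming rule admits. Ifitm3, Psmb8, Lgals3bp, Parp14 and Serpina3n, named through other parts of the rule, passed it too. Higher at 24 h, in log2, were Cxcl10 by 3.08, Ifi44l by 3.003, Ccl12 by 4.36, Lypd2 by 4.46, Higd1b by 3.99, Bhlhe23 by 3.87, Ccdc96 by 3.17 and Ndufa4l2 by 3.16. Ifi44l, Ccl12, Lypd2, Higd1b and Bhlhe23 were listed at 0 in both 6 h IPs, so their values depend on the pseudocount and are no fold. Lower at 24 h were Gdf15 (-4.25), Cxcr6 (-3.08), Apom (-2.64), Fos (-2.57), Epha2 (-2.16), Atf3 (-2.05), Egr1 (-2.03) and Zfp36 (-1.22), with Cxcr6 and Apom listed at 0 in the 24 h IPs. Between the supporting cell and outer hair cell IPs the responses of Eif2s3y (2.71) and Dio3 (-5.90) differed, and between the supporting cell IP and its input that of H2-Ea (2.93), listed at 0 in the control IPs.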

How the results depend on the processing

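The 33 calls at 24 h against control became 13 with a filter of 5 TPM, 18 with the 24 h and control IPs only, 55 without the mean-variance trend, 6 over protein-coding genes only and 566 in the joint fit. With the replicate number as a block there were 0 calls by limma (886 at an unadjusted p under 0.05); the groups share only number 1, and same-numbered libraries did not deviate together (correlations -0.023 to 0.022). Leaving out 1 library gave 0 to 30 calls. The 9 calls of IP against input responses became 5 with a pseudocount of 0.1, 2 with the homogenate as replicate block, and 8 to 34 without 1 homogenate, its IP and input both left out. The 6 calls against the outer hair cell IP became 21 with a pseudocount of 0.1 and 3 to 181 without 1 library. The 89 calls of 24 h against 6 h became 158 with that pseudocount, 43 with median-of-ratios scaling, and 0 to 46 without 1 library. The 9973 calls of IP against input became 5479 with median-of-ratios scaling. The log2 fold change of 24 h over control changed sign without 1 library for Sox2 (range -0.86 to 0.17), Psmb9 (-0.39 to 1.6), Bhlhe23 (-0.22 to 0.89) and Irf2 (-0.057 to 0.66), with median-of-ratios scaling for Rpl22 (-0.062) and Zfp36 (-0.028), and with the replicate block for Gh (-0.92), Xist (0.12) and Fos (0.027); none of these was called, and the cause was not tested. With 3 and 2 libraries a group and unknown depth, small differences could not be resolved.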
